A study of Mus musculus with 8 samples.

Results

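Aquaporins are the membrane channels through which water crosses cell membranes, and 9 of their genes (Aqp1, Aqp2, Aqp3, Aqp4, Aqp5, Aqp7, Aqp8, Aqp9 and Aqp11) were followed here in the testes of Vrk1 mutant and wild-type mice. The members were all non-control probes that carry one of these gene names, 14 probes of the 41174 distinct probes on the array and 9 of 27962 named genes. A single probe stood for each of 6 genes, while Aqp7 had 2, and Aqp4 and Aqp9 had 3 each. The genes were chosen by their log2 differences between mutant and wild type on these same arrays, so their values are described below and not tested.

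Aquaporins form tetramers in which each subunit has its own pore. Orthodox members pass water, and aquaglyceroporins also pass glycerol and other small neutral solutes. In the male tract they take part in the uptake of luminal fluid in the excurrent ducts, in Sertoli cell fluid handling and in the shedding of cytoplasm and the volume control of spermatids and sperm.

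RNA from whole testicular cells of males was hybridised to one-colour Agilent arrays, with 4 arrays from VRK1-/- mice and 4 from VRK1+/+ mice. Vrk1 encodes a nuclear serine/threonine kinase. The labels do not state the kind of Vrk1 allele, the strain, the age or how many animals stand behind an array. The experiments are described as independent. The p-values measure the spread between these arrays, part of which same-numbered arrays shared, as given in the last section.

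Vrk1 itself was lower on every mutant array. Probe A_51_P102339 had log2 levels, relative to each array's 75th percentile, of -3.17, -3.00, -3.00 and -2.72 in mutant replicates 1 to 4, against -0.89, -0.79, -0.63 and -0.54 in wild type. That was 4.78-fold lower in mutants (log2 difference -2.26, SE 0.15, limma adjusted p = 1.65e-04). Probe A_52_P555672 gave -2.06. The 75th percentile of processed signal was 996 ± 87.3 in mutants and 719 ± 51.3 in wild type (SD, n = 4 each), and 84.3% ± 1.47 and 76.1% ± 1.93 of features were well above background in mutants and wild type. The mutant arrays shared one slide and the wild-type arrays another, which means that effects of slide and of genotype cannot be told apart. Of 33718 probes tested, 21.2% were higher and 10.8% lower in mutants at an adjusted p under 0.05, or 32.1% in either direction. The share of calls that were higher was 66.2% with 75th percentile scaling, and it changed to 33.9% (median scaling), 56.5% (quantile), 65.5% (cyclic loess) or 40.3% (normexp background correction).

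Of the 14 aquaporin probes, 12 passed the filter of being well above background on at least 4 of 8 arrays. Past the same threshold, 2 were higher (Aqp5 and Aqp8), 2 were lower (both of Aqp9) and 8 were not called, beside the backgrounds of 21.2% and 10.8% above. The mutant and wild-type values did not overlap for 5 of them, 2 higher (21.6% of all probes) and 3 lower (13.8% of all probes), the fifth being Aqp11. Nothing is read from these counts, since the choice of genes used this contrast. The median log2 difference was -0.26 over the 12 probes and 0.05 over all probes tested, with 5 of the 12 above 0 and 7 below.

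The sequences below were chosen because the Aqp9 probes gave different values, and because Aqp5 and Aqp8 are the genes with higher levels in mutants. The first 3 are 60-base probe sequences in the transcript's sense and lie in coding sequence, on coordinates of the mouse build mm7, named in the array files. Aqp9 is on the minus strand of chromosome 9, so A_52_P80440 (chr9:71167045-71167104) lies nearer the 5′ end of the transcript than A_51_P168133, whose ends are 10465 bases apart in the genome (chr9:71146729-71157193) and which therefore crosses an intron. The Aqp2 probe (chr15:99567392-99568368, plus strand), shown beside them because it too crosses an intron, spans 977 bases.
Aqp9 A_52_P80440: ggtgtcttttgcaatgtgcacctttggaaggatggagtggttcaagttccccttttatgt
Aqp9 A_51_P168133: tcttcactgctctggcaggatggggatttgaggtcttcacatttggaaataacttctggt
Aqp2 A_51_P492298: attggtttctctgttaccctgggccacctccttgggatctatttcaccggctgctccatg

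The next pair are the 250 bases before the annotated starts of Aqp5 (chr15:99590778-99591027, plus strand) and Aqp8 (chr7:123462044-123462293, plus strand), from RefSeq on GRCm38.p6, with matches to a GC box (GGGCGG) in capitals. RefSeq windows matched 8 of the 9 genes.
Aqp5 upstream: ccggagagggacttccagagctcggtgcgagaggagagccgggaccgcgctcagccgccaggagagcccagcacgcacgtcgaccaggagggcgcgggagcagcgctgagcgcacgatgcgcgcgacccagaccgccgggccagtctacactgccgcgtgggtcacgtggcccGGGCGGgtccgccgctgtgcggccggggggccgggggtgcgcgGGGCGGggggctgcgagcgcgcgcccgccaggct
Aqp8 upstream: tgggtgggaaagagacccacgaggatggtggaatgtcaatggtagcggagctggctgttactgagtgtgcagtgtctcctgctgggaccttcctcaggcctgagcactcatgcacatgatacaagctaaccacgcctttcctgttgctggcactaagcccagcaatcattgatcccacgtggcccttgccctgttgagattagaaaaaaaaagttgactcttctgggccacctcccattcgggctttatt
The Aqp5 window was 78.4% G and C, against 52.4% in the Aqp8 window and a median of 52.4% over 32851 windows. It held 2 GC boxes, with first bases at -77 and -34 from the start, a motif found in 32.7% of all windows. The Aqp8 window held no match to it, nor did either window hold the TATA box TATAAA (12.4% of all windows), the cAMP response element TGACGTCA (1.55%), the oestrogen receptor response motif AGGTCA (14.0%) or the SOX core ACAAAG (16.5%). Each motif was searched on both strands, and a match is a description of the letters alone.

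Among the orthodox water channels, Aqp5 differed most between the genotypes. It is known from salivary, lacrimal and airway glands, where it carries water into secreted fluid. Its log2 level, by the single probe A_51_P207601 (chr15:99579945-99580003), was 1.03, -0.13, 0.23 and 1.61 in mutant replicates 1 to 4, against -0.92, -2.10, -2.21 and -1.22 in wild type. All 4 mutant arrays lay above all 4 wild-type arrays, with 0.79 between the nearest pair. Means were 0.68 ± 0.78 in mutants and -1.61 ± 0.64 in wild type (SD, n = 4 each), a 4.91-fold difference (log2 2.30, SE 0.41). The spread within each genotype was wide, with mutant replicates 4 and 1 highest. In a bulk tissue, more cells that carry a transcript and more transcript per cell cannot be told apart, and this holds for every gene below.

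Mutant replicates 1 and 4 were also the arrays high in several transcripts of the excurrent ducts (rete testis to epididymis). Other genes of the same list, Lcn9, Cst8, Cst11, Gpx5 and Ros1, did not have this pattern. Crisp1, an epididymal secreted protein, had log2 levels of 2.50, -2.40, -4.20 and 2.80 in mutant replicates 1 to 4, and -5.56, -4.98, -5.23 and -5.16 in wild type. Cd52, a sperm-coating antigen made in the epididymis and also by leukocytes, had 4.03, -0.15, -0.82 and 3.15 in mutants, and -1.19, -1.35, -1.21 and -2.46 in wild type. Over the 15 excurrent duct genes the mean log2 level was -1.56, -3.01, -3.30 and -1.69 in mutants, and -3.63, -3.45, -3.49 and -3.82 in wild type. The lowest mutant mean minus the highest wild-type mean was 0.15, but -0.75 with normexp background correction. Of the 15, 11 were tested and 4 were higher in mutants (Crisp1, Spink8, Cd52 and Rnase9, limma adjusted p = 0.0256, 0.0134, 0.0371 and 0.00914). Adam7, Lcn5, Lcn8 and Defb42 were at background on all 4 wild-type arrays, and Lcn8 was at background on all 8 arrays. The summed linear level ranged from 47.8 to 93.5 in mutants and from 55.0 to 89.9 in wild type, most of it Cst8, a cystatin also bright in testis. On mutant replicates 2 and 3, Crisp1, Spink8 and Cd52 were far lower than on 1 and 4, but still above every wild-type array. Spink8 had -1.23 and -1.33 there, and its highest wild-type level was -2.91. Without mutant replicates 1 and 4 the Aqp5 log2 difference was 1.66 (SE 0.39), and limma no longer called Aqp5. Most calls of any gene were lost in that fit, with 252 probes higher and 55 lower, against 7160 and 3655 with all arrays. Nothing about the ducts is therefore read from the lost call. What cells of the ducts contributed to the Aqp5 value was not tested.

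**Figure D1:**
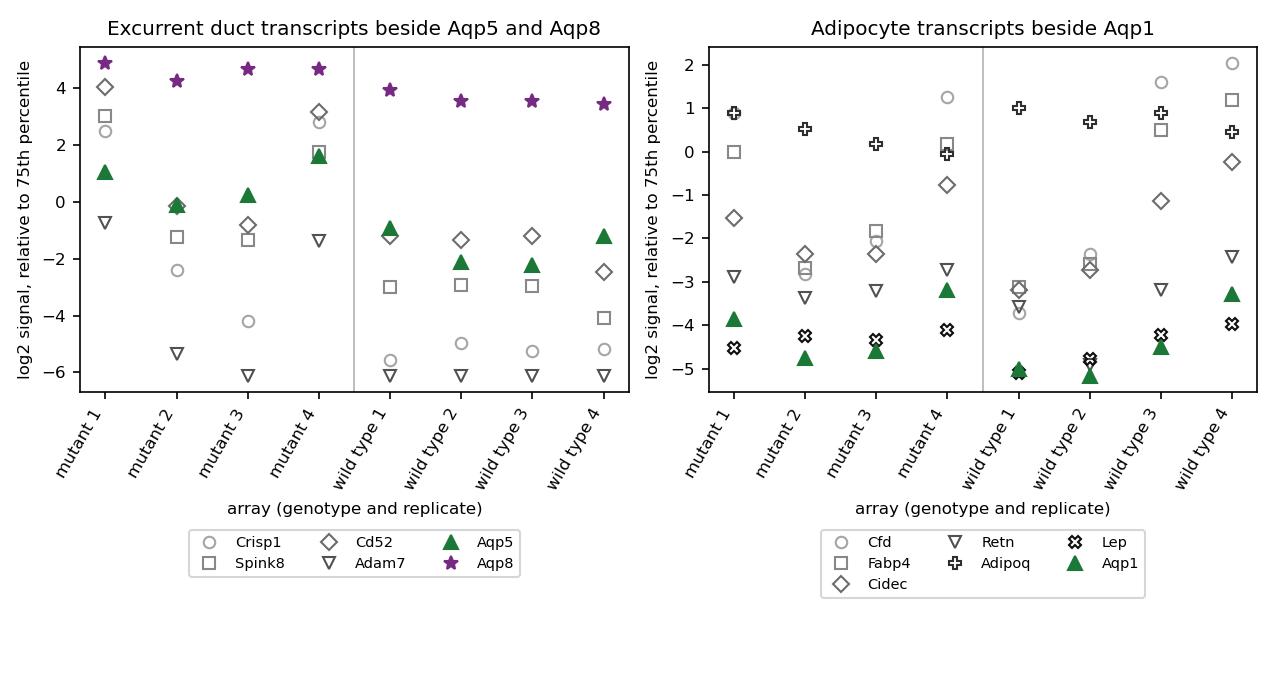
Left, scaled log2 level of 4 of the 15 excurrent duct genes, Aqp5 and Aqp8 on each array. Right, the 6 adipocyte genes and Aqp1. Points are single arrays, and heights of different probes are not to be compared. Crisp1, Spink8, Cd52 and Adam7 are high on mutant replicates 1 and 4, where Aqp5 has its 2 highest values of 1.03 and 1.61. Lcn9, Cst8, Cst11, Gpx5 and Ros1, not drawn, do not have this pattern.

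Aqp2 is the vasopressin-regulated channel of the kidney collecting duct and is also made in the vas deferens. Its probe gave log2 levels of 0.65, 0.79, 0.81 and 1.18 in mutants, against -0.39, 0.25, 0.58 and 0.97 in wild type. The genotypes overlapped and the log2 difference was 0.50 (SE 0.27). Wild-type replicate 1 was the low value here, and replicate 4 was the highest array of each genotype.

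Aqp1 is the constitutive channel of red cells, vessel endothelium, kidney proximal tubule and efferent ducts. Its log2 level on probe A_51_P125205 (chr6:55311856-55311915) was -3.85, -4.76, -4.60 and -3.18 in mutants, and -5.01, -5.17, -4.51 and -3.28 in wild type. The probe was well above background on 4 mutant arrays but on 2 wild-type arrays, and the genotypes overlapped. The log2 difference of 0.39 (SE 0.46) had no settled sign, at -0.01 with quantile normalization, -0.31 with normexp and -0.19 without mutant replicates 1 and 4. Replicate 4 was the highest array of each genotype.

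Markers of several cell types were read beside Aqp1, and those of fat cells differed among themselves. Cfd, the adipocyte protease adipsin, had log2 levels of 0.88, -2.81, -2.06 and 1.26 in mutants, against -3.72, -2.36, 1.61 and 2.05 in wild type, high on mutant replicates 1 and 4 and wild-type replicates 3 and 4. Adipoq, the adipocyte hormone adiponectin, had 0.90, 0.53, 0.18 and -0.06 in mutants, against 1.01, 0.68, 0.90 and 0.46 in wild type, and was lowest on the replicate 4 arrays where Aqp1 was highest. None of the 6 adipocyte genes passed the limma test at an adjusted p under 0.05, and none passed at an unadjusted p under 0.05 either. Their summed linear level ranged from 2.0 to 5.27 in mutants and from 2.18 to 8.92 in wild type. All 6 were well above background on every array. Their mean log2 level was -1.19, -2.49, -2.27 and -1.04 in mutants, against -2.95, -2.78, -0.93 and -0.49 in wild type. That mean was highest on replicate 4 of each genotype, as Aqp1 was, and so were Cfd, Fabp4, Retn, Cidec and Lep singly. The mean log2 level of the 8 endothelial genes was -1.93, -2.15, -2.15 and -1.53 in mutants, against -2.91, -2.29, -2.27 and -1.98 in wild type, and that of the 5 erythroid genes was -0.31, -0.18, -0.27 and -0.09 in mutants, against -0.79, -0.80, -0.61 and -0.34 in wild type. Both were highest on replicate 4 of each genotype, as Aqp1 was. By likeness over the 8 arrays (root mean square distance between log2 levels centred on the wild-type mean), the genes closest to Aqp1 were Sox13 (0.13), Col1a1 (0.20) and Itch (0.21). For Aqp5 they were Myoz2 (0.39), Serpina5 (0.47) and Aldh5a1 (0.50), whose log2 differences were 2.06, 1.77 and 2.08. The part of other cell types in the aquaporin values was not tested.

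Aqp4 is the channel of brain astrocyte end-feet. A_52_P25710 gave log2 levels of -4.36, -3.87, -3.30 and -3.33 in mutants, against -3.32, -3.08, -2.90 and -3.28 in wild type, a log2 difference of -0.57 (SE 0.24) with overlapping genotypes. It was -0.88 with quantile normalization or cyclic loess. The other probes, A_51_P419319 and A_52_P625527, were not well above background on any of the 8 arrays.

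Aqp8 passes water and, in other tissues, ammonia and hydrogen peroxide, and in rodent testis it is known from germ cells and Sertoli cells. The single probe A_51_P183261 (chr7:119570588-119570647) had log2 levels of 4.89, 4.23, 4.68 and 4.68 in mutants, against 3.92, 3.54, 3.56 and 3.44 in wild type. No mutant array fell as low as any wild-type array. The means were 4.62 ± 0.28 in mutants and 3.61 ± 0.21 in wild type (SD, n = 4 each), a 2.01-fold difference (log2 1.01, SE 0.18). It was 0.84 without mutant replicates 1 and 4, and between 0.79 and 1.36 under the other scalings and background correction. Mutant replicate 2 was the lowest of the mutant arrays.

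Sertoli cell markers were higher in mutants as well. All 8 passed the limma test, their summed linear level ranging from 126 to 193 in mutants and from 55.6 to 88.7 in wild type. Clu, a secreted chaperone, had a log2 difference of 1.09 (adjusted p = 0.00511), and Rhox5, a Sertoli homeobox factor, 1.05 (adjusted p = 0.00531). All 8 were well above background on all arrays. What the Sertoli cell share contributed to the Aqp8 value was not tested.

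**Figure D2:**
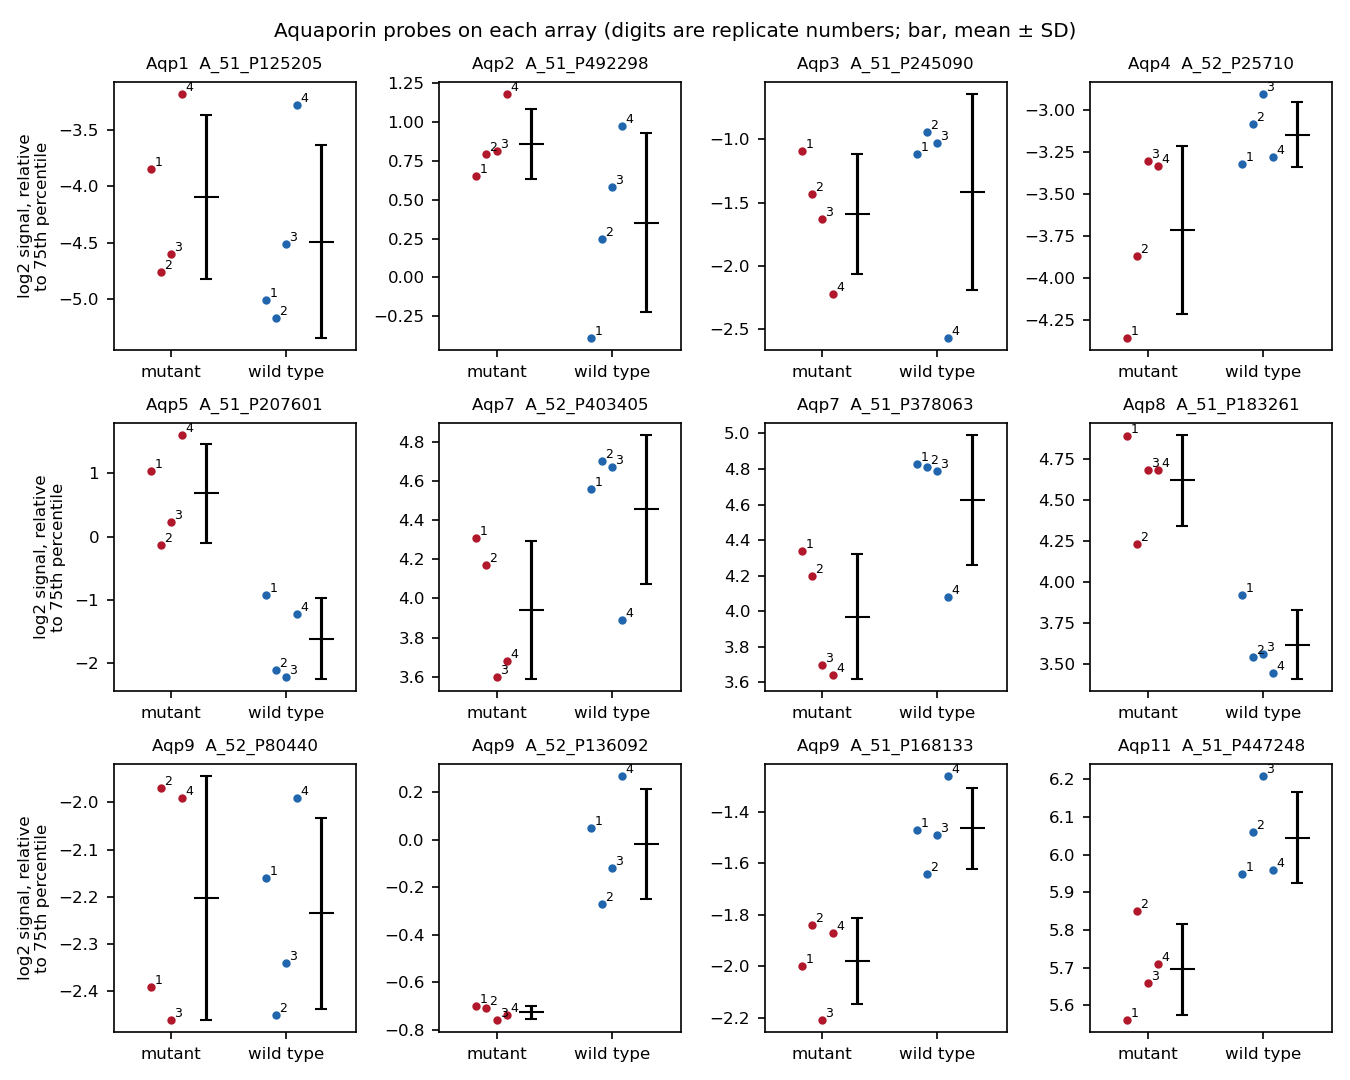
Scaled log2 level of each aquaporin probe that passed the filter, with the 4 mutant arrays left of the 4 wild-type arrays in each panel. Points are single arrays, bars are the mean with SD (n = 4 each), and each panel has its own axis. Mutant and wild-type points are apart for Aqp5, Aqp8, 2 probes of Aqp9 and Aqp11, and mix for the others.

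Of the aquaglyceroporins, Aqp9 is known from liver, leukocytes, the epididymal epithelium and, in rats, Leydig cells. Probe A_52_P136092 (chr9:71145729-71145788), the most 3′ of its probes, had log2 levels of -0.70, -0.71, -0.76 and -0.74 in mutants, against 0.05, -0.27, -0.12 and 0.27 in wild type. The log2 difference was -0.71 (SE 0.15), and the genotypes did not overlap. The intron-crossing probe A_51_P168133, printed above, had -2.0, -1.84, -2.21 and -1.87 in mutants, against -1.47, -1.64, -1.49 and -1.26 in wild type, a log2 difference of -0.51 (SE 0.14) without overlap.

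The most 5′ probe of Aqp9 did not follow the other two. A_52_P80440 had -2.39, -1.97, -2.46 and -1.99 in mutants, against -2.16, -2.45, -2.34 and -1.99 in wild type. The genotypes overlapped, and the log2 difference of 0.03 (SE 0.17) had no settled sign, at -0.19 (median scaling), -0.13 (quantile), -0.14 (cyclic loess), -0.30 (normexp) and between -0.04 and 0.12 with single arrays left out. The 3 probes thus gave different values along one transcript, and why was not tested. None of the 3 was high on mutant replicates 1 and 4 in the way of Crisp1. Leydig cell markers included 3 of 6 that rose and none that fell, with a summed linear level of 143 to 242 in mutants and 73.9 to 133 in wild type. Insl3, a Leydig cell hormone, had a log2 difference of 0.97 (limma adjusted p = 0.0287) and Cyp17a1, of androgen synthesis, 0.76 (adjusted p = 0.0691).

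Aqp7 is the glycerol channel of fat cells and is also known from spermatids and sperm tails. Its 2 probes cover 38 shared positions, with 1 mismatch between them (G40A, counted from the 5′ end of A_52_P403405, whose base comes first), so they are not independent readings. A_52_P403405 (chr4:41172673-41172732) had log2 levels of 4.31, 4.17, 3.60 and 3.68 in mutants, against 4.56, 4.70, 4.67 and 3.89 in wild type. A_51_P378063 had 4.34, 4.20, 3.70 and 3.64 in mutants, and 4.83, 4.81, 4.79 and 4.08 in wild type. The log2 differences were -0.52 (SE 0.23) and -0.66 (SE 0.23), at -0.73 and -0.88 with median scaling and -0.17 and -0.31 with quantile normalization. The genotypes overlapped only through wild-type replicate 4, which lay well under the other 3 wild-type arrays on both probes. Mutant replicate 4 was the lowest mutant array on A_51_P378063 and the next to lowest on A_52_P403405.

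Aqp3, a channel for water and glycerol of basolateral epithelial membranes and of sperm tails, was read by A_51_P245090 (chr4:41231392-41231451). It had log2 levels of -1.09, -1.43, -1.63 and -2.22 in mutants, against -1.12, -0.94, -1.03 and -2.57 in wild type. The difference was -0.18 (SE 0.37), and the lowest array of each genotype was replicate 4. The genes most alike to it over the 8 arrays were Nsmf (0.12), Lhx2 (0.13) and Necab3 (0.13). Aqp3 and Aqp7 are neighbours on chromosome 4, and Aqp2, Aqp5 and Aqp6 follow one another on chromosome 15, in the gene order of RefSeq on GRCm38. Along Aqp2, Aqp5 and Aqp6 the log2 differences were 0.50, 2.30 and -0.28.

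Aqp11 is an unorthodox member of intracellular membranes, known in rodent testis from elongated spermatids. Its log2 level on A_51_P447248 (chr7:93757914-93757973) was 5.56, 5.85, 5.66 and 5.71 in mutants, against 5.95, 6.06, 6.21 and 5.96 in wild type. The highest mutant array was below the lowest wild-type array, but by little. The log2 difference of -0.35 (SE 0.13) did not keep its sign, being 0.07 with quantile normalization and 0.12 with cyclic loess, against -0.56 with median scaling.

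Germ cell markers were counted beside Aqp7 and Aqp11. Of 8 elongating spermatid genes, 1 fell and 7 did not pass, with a summed linear level of 1485 to 1940 in mutants and 1732 to 2264 in wild type. Prm1, a protamine that packs sperm DNA, had a log2 difference of -0.30 (limma adjusted p = 0.263) and Tnp1, a transition protein, -0.28 (adjusted p = 0.256). Of 6 spermatocyte genes, 3 fell, among them the chaperone Hspa2 (-0.67, adjusted p = 0.0161) and the cyclin Ccna1 (-0.72, adjusted p = 0.0177), and their summed linear level was 51.7 to 78.1 in mutants and 97.1 to 111 in wild type. Every gene of both lists was above background on some wild-type array. Their part in the Aqp7 and Aqp11 values was not tested.

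**Figure D3:**
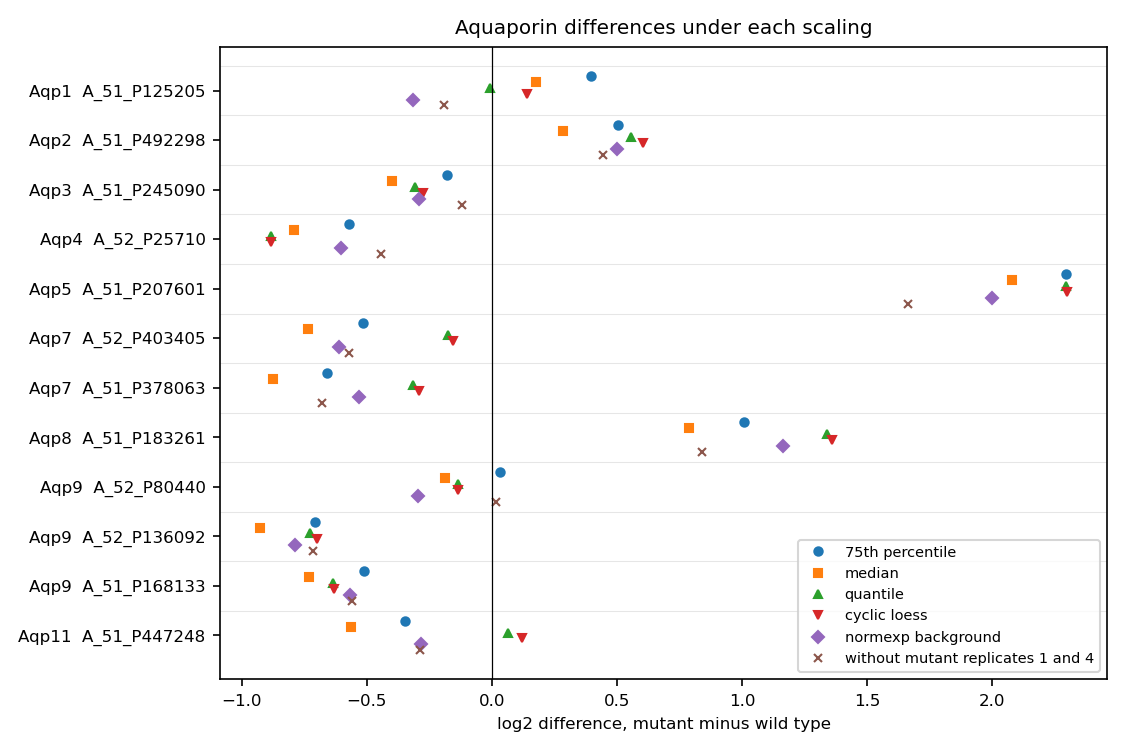
Log2 difference, mutant minus wild type, of each aquaporin probe under 5 ways of scaling or background correction. A point right of 0 is higher in mutants. Under the 5 ways Aqp5 stays between 2.0 and 2.30 and Aqp8 between 0.79 and 1.36. Without mutant replicates 1 and 4 they are at 1.66 and 0.84. Aqp1, Aqp11 and the Aqp9 probe A_52_P80440 have points on both sides of 0.

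The scaling moved the median log2 difference of all probes, which was 0.05 with 75th percentile scaling, -0.17 (median scaling), -0.06 (quantile), -0.005 (cyclic loess) and -0.23 (normexp). Relative to that median, Aqp5 differed by 2.24, 2.24, 2.36, 2.30 and 2.23 in the same order. Aqp8 differed by 0.95, 0.95, 1.40, 1.37 and 1.39, and A_52_P136092 of Aqp9 by -0.76, -0.76, -0.66, -0.69 and -0.56. For Aqp11 the values were -0.40, -0.40, 0.13, 0.12 and -0.05.

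Outside the 9 genes, the family had 3 more members on the array. Mip (Aqp0), the lens fibre channel, was at background on all 4 wild-type arrays and was at least 1.56-fold higher in mutants (log2 0.64, limma adjusted p = 0.0251). It passed under none of the 4 other scalings and background corrections, and turned to -0.34 with normexp (adjusted p = 0.215). Aqp6, an intracellular anion-conducting channel of kidney, had a log2 difference of -0.28 (adjusted p = 0.471), and Aqp12, of pancreatic acinar cells, -0.07 (adjusted p = 0.709).

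Genes that work with aquaporins were counted by the probe of highest mean level, in 4 lists of 58 genes, of which 56 were tested. Over the lists, 20 genes (35.7%) were higher and 5 (8.93%) lower in mutants at a limma adjusted p under 0.05, and 31 did not pass. Of all 23962 genes tested, 21.6% were higher and 12.2% lower. The list median log2 difference was 0.29, against 0.04 over all genes. The lists were chosen with earlier results of these data known, so nothing is read from these shares and medians. Without mutant replicates 1 and 4, 1 of 54 tested genes passed, Gk5 (adjusted p = 0.0489), and none was lower by limma, with 18 higher and 4 lower at an unadjusted p under 0.05. Over all probes, that fit called 252 higher and 55 lower.

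Glycerol handling split evenly by the counted probes. Of 10 genes, 3 rose, 3 fell and 4 did not pass, with a median log2 difference of -0.02. Gpd2 did not pass by its counted probe (-0.33, limma adjusted p = 0.274), while its other probe was higher (0.91, adjusted p = 0.0255). Gk5, a glycerol kinase homologue, had log2 levels of -2.75, -3.05, -2.73 and -2.56 in mutants, against -3.84, -4.13, -4.15 and -4.35 in wild type. That is a log2 difference of 1.35 (SE 0.16, limma adjusted p = 9.49e-04). With normexp it was 0.41 (adjusted p = 0.144). Gpd1l, a glycerol-3-phosphate dehydrogenase homologue, rose by 0.87 (adjusted p = 0.00587), while its other probe gave -0.29 (adjusted p = 0.121). Of the 3 lipases that release glycerol from fat, 2 were lower, Mgll (monoglyceride lipase) by a log2 difference of -0.89 (adjusted p = 0.00506) and Pnpla2 (adipose triglyceride lipase) by -0.63 (adjusted p = 0.00737). The Pnpla2 call ended with quantile normalization (adjusted p = 0.0627) and cyclic loess (0.0881), and its other probe did not pass (-0.55, adjusted p = 0.0571). The other Mgll probes gave -1.04 (adjusted p = 0.00159) and -0.39 (adjusted p = 0.269). Lipe, the hormone-sensitive lipase, named here after its values were seen, gave -0.23 (adjusted p = 0.406) and -0.35 by its other probe (adjusted p = 0.269).

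Ion and fluid transport leaned upward. Of 23 tested genes, 8 rose and 2 fell, with a median log2 difference of 0.38. By probes not counted, Slc4a4 (0.82, limma adjusted p = 0.00285) and Slc14a1 (1.15, adjusted p = 0.00484) were also higher. Neither passed by its counted probe. Esr1, counted as higher, did not pass by its other probe (0.05, adjusted p = 0.815). Slc14a2, counted as lower, did not pass by its other probes (0.27 and 0.34, adjusted p = 0.268 and 0.140). Rhbg, an ammonium transporter, had log2 levels of 0.54, 0.05, 0.66 and 0.90 in mutants, against -0.40, -0.52, -0.52 and -0.05 in wild type, and rose by 0.91 (SE 0.20, limma adjusted p = 0.0101). Scnn1b, a chain of the epithelial sodium channel, rose by 0.77 (adjusted p = 0.0076), a sign that turned with normexp (-0.21, adjusted p = 0.379) and a call that ended with quantile normalization (0.36, adjusted p = 0.0861).

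Osmolyte and cell volume genes included 4 of 14 that rose and none that fell by the counted probes, with a median log2 difference of 0.12. By probes not counted, Slc6a6 was lower (-0.51, limma adjusted p = 0.0271) and Akr1b3 higher (0.93, adjusted p = 0.0029). Neither passed by its counted probe. Sgk1, a kinase induced by hypertonicity and steroids, rose by 1.10 (SE 0.18, limma adjusted p = 0.00351), and its other probe by 1.37 (adjusted p = 0.0022). Lrrc8d, a subunit of the volume-regulated anion channel, rose by 0.90 (adjusted p = 0.00623). Nfat5, the transcription factor of the response to high osmolarity, rose by 0.89 (adjusted p = 0.0210), a call that ended without mutant replicate 1 or 3. Trpv4, an osmosensitive calcium channel, rose by 0.68 (adjusted p = 0.0303) but did not pass under any of the 4 other scalings and background corrections.

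In the list for aquaporin anchoring and hormone control, 5 of 9 genes rose and none fell, with a median log2 difference of 0.90. Dmd, the dystrophin that anchors Aqp4 through syntrophin, rose by 1.28 (SE 0.19, limma adjusted p = 0.00246), and another probe by 1.22 (adjusted p = 0.0165). With normexp the first gave 0.49 (adjusted p = 0.0930). Stx4, a syntaxin of Aqp2 vesicle fusion, rose by 0.90 (adjusted p = 0.0122). Kcnj10, the astrocyte potassium channel found beside Aqp4, and Avpr2, the vasopressin receptor that directs Aqp2, were at background on all 4 wild-type arrays. They were at least 2.84-fold and at least 2.05-fold higher in mutants (adjusted p = 7.59e-04 and 0.00329), but had log2 differences of -0.04 and -0.30 with normexp (adjusted p = 0.891 and 0.299). Avpr2 also did not pass with quantile normalization (adjusted p = 0.111).

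**Figure D4:**
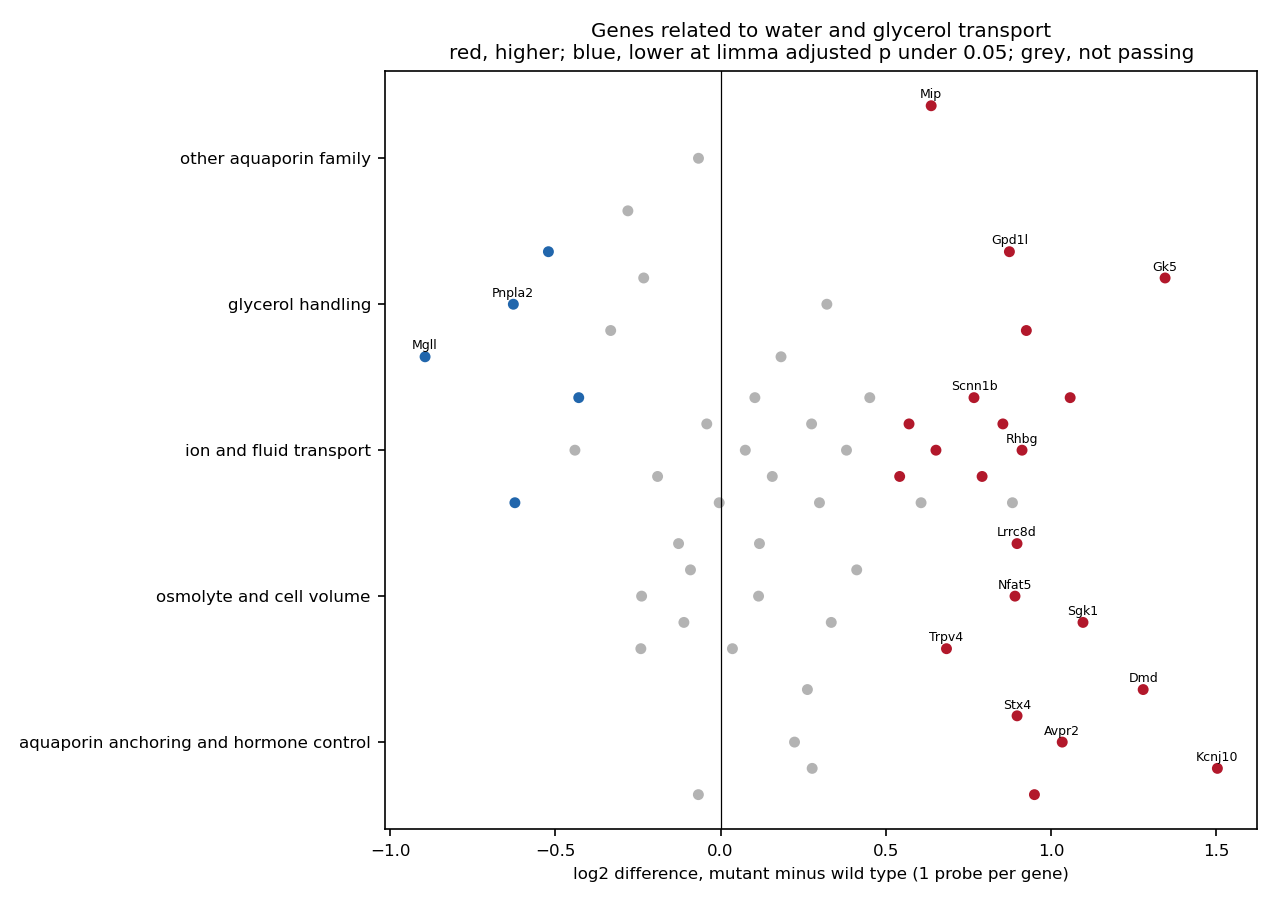
Log2 difference, mutant minus wild type, of each tested gene in the lists around the aquaporins, 1 probe per gene, with red for higher and blue for lower at a limma adjusted p under 0.05 and grey for genes that did not pass. Labels mark genes described in the text. Most genes that passed lie right of 0, and glycerol handling has 3 on each side.

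Other markers were read beside these values. All 5 macrophage genes rose by their counted probes, among them Lyz2, a lysozyme (1.36, limma adjusted p = 0.0104), and Mrc1, a mannose receptor (0.74, adjusted p = 0.0163), with a summed linear level of 9.77 to 27.4 in mutants and 6.74 to 7.72 in wild type. Of the 5, Csf1r did not pass by its other probes (0.32 and 0.22, adjusted p = 0.393 and 0.207), and Adgre1 passed narrowly (adjusted p = 0.0496). The genotypes overlapped for both genes. Of 8 endothelial genes 2 rose, and of 5 erythroid genes 1 rose, with no gene of either list lower. Aqp1 is made in both of these cell types, and its values overlapped between the genotypes.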

How the data were processed

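Per the labels, Trizol-extracted total RNA was made into Cy3-labelled cRNA. Per the submitters' processing notes, signals came from Agilent Feature Extraction 9.5.3.1. The deposited intensity values are its background-subtracted processed signals for 45018 features per array (1639 controls), with no feature saturated, and flags for signal well above background. The series' value table held the same intensity values as deposited on all 45018 features, within a relative tolerance of 1e-04.

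Features flagged as outliers were left out, repeated spots were averaged, each array was divided by its 75th percentile, and log2 was taken after raising values to a floor of 0.01437 (log2 -6.12). The filter kept probes flagged well above background on 4 or more of the 8 arrays, and limma 3.58.1 (R 4.3.3) was fitted to them (genotype only, Benjamini-Hochberg, 33718 probes), after the script was tested on simulated data. The number of arrays limits the precision. A probe at background (not flagged well above it) on all arrays of a genotype has only a bound, computed against its own scaled signal on each array or the lowest signal well above background there, whichever is higher.

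The members and lists were chosen with earlier results of these data known. Some list genes outside the naming rule that follows were named after their values were seen. Named were Vrk1, every member, the 3 other family members, the 4 genes of smallest p in each other list (2 of the ion and fluid transport list are not reported here), the 2 brightest genes of each marker list with the excurrent duct genes needed, and the 3 genes most alike to each of the 3 aquaporin probes of widest range.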

Additional observations from a re-analysis of the deposited data

Results flagged for a closer look

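In 9 cases the lowest or highest of the 4 arrays of a genotype stood apart from the other 3 by more than Dixon's critical value for the gap over the range of 4 values, out of 72 groups of values examined, and chance alone gives about 1 in 20. Wild-type replicate 4 was the low array for Aqp3 (log2 level -2.57, the others between -1.12 and -0.94) and for both Aqp7 probes (3.89 for A_52_P403405 and 4.08 for A_51_P378063). It was also the low array for Nfat5 (-1.24). Mutant replicate 2 was low for Aqp12 (-3.75) and high for Pnpla2 (3.40), and wild-type replicate 1 was low for Pnpla2 (3.72). Mutant replicate 1 was low for the Vrk1 probe A_52_P555672 (-3.73). Wild-type replicate 3 was high for Avpr2 (-5.67), where all 4 wild-type arrays were at background.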

How the results depend on the processing

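Over all probes, 7160 were higher and 3655 lower in mutants. The counts were 4491 and 8768 with median scaling, 4405 and 3385 with quantile normalization, 5166 and 2725 with cyclic loess, 2092 and 3097 with normexp, and 252 and 55 without mutant replicates 1 and 4, and the cause was not tested. Leaving out single arrays gave 3885 to 7354 higher and 1420 to 4431 lower, with the lowest counts without mutant replicate 3. Higher calls were 4142, 3885 and 4210 without mutant replicates 1, 3 and 4, and lower calls 1539, 1420 and 1779 without those and 1803 and 1694 without wild-type replicates 2 and 3. Counting 1 probe per gene, 5186 were higher and 2930 lower. Of the 12 aquaporin probes 2 were called higher and 2 lower. The lower count was 6 (median scaling) or 3 for quantile normalization, cyclic loess, normexp, no filter or a filter on all arrays. Without mutant replicates 1 and 4 limma called 0 higher and 0 lower, with 2 higher and 3 lower at an unadjusted p under 0.05. Leaving out single arrays gave 2 to 3 higher and 1 to 4 lower. The lower count was 1 without mutant replicate 1 or 3 or wild-type replicate 3, and 4 without wild-type replicate 4, where the Aqp2 difference was 0.71 and those of Aqp7 were -0.70 and -0.84. Nothing is read from the aquaporin counts, since the genes were chosen by this contrast. For the 4 companion lists, 20 higher and 5 lower became 15 and 7 with median scaling, 14 and 2 with quantile normalization, 17 and 1 with cyclic loess, 9 and 4 with normexp, 19 and 7 with no filter, and 1 and 0 without mutant replicates 1 and 4. They ranged from 13 to 22 higher and 3 to 6 lower with single arrays left out, at 13 higher without mutant replicate 1 or 3, and 3 lower without mutant replicates 1, 3 or 4 or wild-type replicates 2 or 3. Of 203 recomputed aquaporin differences 194 moved by less than the replicate spread, and of 305 differences of the named companion genes 36 no longer passed and 4 changed sign, all with normexp (Mip -0.34, Scnn1b -0.21, Kcnj10 -0.037 and Avpr2 -0.30). The cause was not tested. Of the 4, Mip, Kcnj10 and Avpr2 were at background on all 4 wild-type arrays and Scnn1b on none of the 8.

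The labels do not say whether replicate numbers pair the samples, and the main fit did not pair them. Same-numbered arrays correlated in their deviations at 0.28, 0.24, 0.09 and 0.61 over 33649 probes. Each mutant array correlated best with the wild-type array of its own number. Spread shared by same-numbered arrays is therefore part of the standard errors given above. For Aqp5 the SE was 0.41, and 0.18 with replicate as a block. With replicate as a block, 9242 probes were higher and 5913 lower, 3 aquaporin probes higher (Aqp2 added) and 5 lower (A_52_P25710 of Aqp4 and both Aqp7 probes added), and 22 companion genes higher and 5 lower.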
